A study of Rattus norvegicus with 10 samples.

Results

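Input libraries are sequenced from sheared chromatin that has not been enriched with an antibody. The number of reads on a chromosome then follows the amount of its DNA in the cells, as far as its reads can be mapped. Of the 10 samples of the series, 4 are such inputs, and they are described here over the 20 autosomes of the rat (of 21 chromosomes in the files, the other being X). All come from RCS cells, a line grown from a rat chondrosarcoma, and were chosen by their label of no antibody. Going by their titles, SOX9, SOX6 and H3K27ac each had an input of their own, and H3K4me1, H3K4me3 and H3K9me3 shared a further one, called the histone input below. The labels name no genotype, treatment, passage or clone, and nothing says that the inputs came from separate cultures, so the spread between them may be technical. The other 6 samples are immunoprecipitations with 1 library each. The inputs hold no values for genes, so the identity of the cells was not checked against cartilage genes here.

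In a normal diploid genome every autosome is present in the same number of copies, and input reads per length are then alike on all of them apart from differences in sequence that affect mapping. Cell lines from tumours often carry gains and losses of whole chromosomes or of parts. Reads per chromosome show the relative amount of DNA averaged over all cells, within the limits of mapping. They do not give an absolute number of copies, and a gain in every cell and a larger gain in some cells cannot be told apart, nor can the gain of a whole chromosome and of a segment.

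The unit used below, the level, is the number of reads without a mismatch per Mb of an autosome divided by the same number for the median autosome of that library. The last peak end over the 6 peak lists stood in for the length of each autosome, from 54.4 Mb for chromosome 12 to 290.1 Mb for chromosome 1. The end in the list that stopped first lay at 97.6% to 99.97% of this length. The libraries held 54706894 autosomal reads without a mismatch for the SOX9 input, 32452690 for SOX6, 15183515 for H3K27ac and 15895552 for the histone input. At this depth the exact Poisson 95% interval of a level was at most ±0.445% of its value (over 80 levels) and as narrow as ±0.0862%. It was taken from the autosome's own count with the median held fixed, so counting error in the median is left out. All intervals here cover counting error only, since reads are not counted as independent molecules.

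The SOX6 input stood somewhat apart from the other 3. The ratio of its levels to those of another library ran from 0.951 to 1.07, and the median difference over the autosomes was 1.61% to 1.84%. Among the other 3 libraries the median difference was 0.472% to 0.926%. No pair of libraries agreed within sampling noise. The chi-square over its degrees of freedom (1 for pure counting error) was 31.1 to 89.6 among the SOX9, H3K27ac and histone inputs and 295 to 423 for pairs with the SOX6 input. This value grows with the number of reads, which differs between pairs, so it does not rank them by agreement. It was 89.6 for the SOX9 and H3K27ac inputs at a median difference of 0.618%, and 47.3 for the H3K27ac and histone inputs at 0.926%. The largest of the 6 Benjamini-Hochberg adjusted p-values of the chi-square test was 3.11e-113, and the test compares these libraries and not conditions. At this depth the test picks up differences as small as a median of 0.472%, so it cannot show that the inputs are independent samples. The 4 libraries were counted separately as they were deposited, and leaving out the SOX6 input moved no level by more than 1.30%.

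Autosomes in RCS cells differed far more from each other than libraries did. The SD over the 20 levels was 0.406 in the SOX9 input, 0.388 in SOX6, 0.408 in H3K27ac and 0.412 in the histone input. The highest level was 2.91 ± 0.0519 times the lowest (SD, n = 4 libraries). For a single autosome the SD over the 4 libraries was 0.394% to 2.87% of the mean, with a median of 1.08%. Levels across the 20 autosomes followed each other closely in every pair of libraries (Pearson's r from 0.9977 to 0.9998, Spearman's rho from 0.982 to 0.997). These correlations are across chromosomes that share their length estimate, and chromosomes are not replicates.

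**Figure D1:**
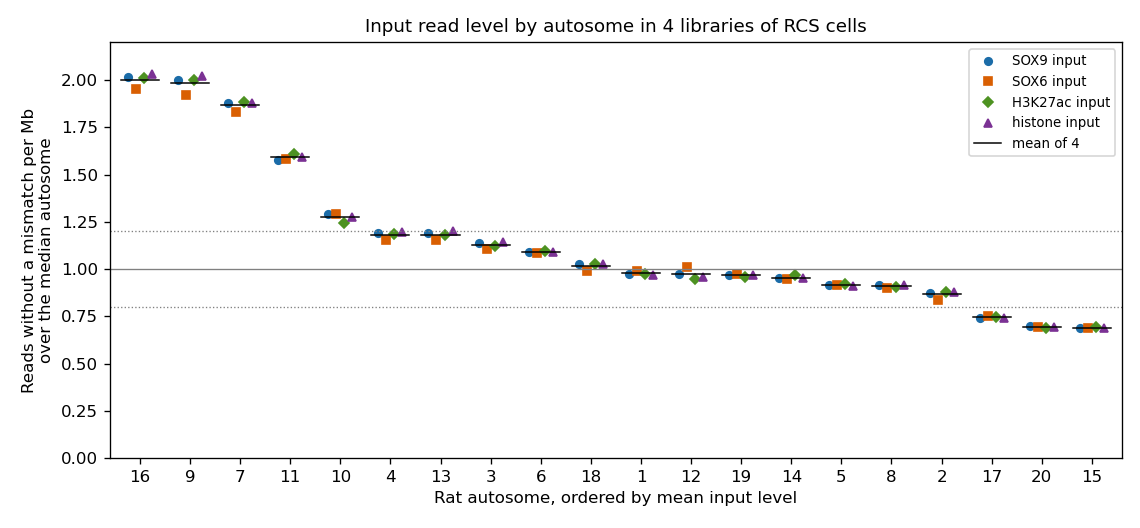
Level of each rat autosome (reads without a mismatch per Mb over the median autosome) in the 4 input libraries, ordered by the mean, which is the black bar. Dotted lines mark 1.2 and 0.8. Chromosomes 16, 9, 7, 11 and 10 lie above 1.2 and chromosomes 17, 20 and 15 below 0.8 in every library.

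Chromosomes 16, 9 and 7 held close to 2 times the reads per Mb of the median autosome, or 1.47 to 1.59 times when only 100 kb bins with a peak were counted as length. Chromosome 16 had a level of 2.02 in the SOX9 input, 1.95 in SOX6, 2.01 in H3K27ac and 2.03 in the histone input, with a mean of 2.003 ± 0.0350 (SD, n = 4). Chromosome 9 had 1.999, 1.92, 2.003 and 2.02 in the same order, with a mean of 1.99 ± 0.0441. It lay below chromosome 16 in 4 of 4 libraries, but the values of the pair overlap between libraries. Chromosome 7 had 1.88, 1.83, 1.88 and 1.88, with a mean of 1.87 ± 0.0234. Each of its values was below every value of chromosome 9, so it was set apart from the pair beyond the spread between libraries. The SOX6 input was the lowest of the 4 libraries on all 3 chromosomes.

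Chromosome 11 took a place of its own between these and the rest. Its level was 1.58 in the SOX9 input, 1.59 in SOX6, 1.61 in H3K27ac and 1.59 in the histone input (mean 1.59 ± 0.0138, SD, n = 4). The steps on either side of it were the widest in the order of autosomes, 0.277 below chromosome 7 and 0.316 above chromosome 10. Its level depended on the reads counted more than that of any other autosome, and rose to 2.84 when all aligned reads were used. Chromosome 10 had levels of 1.29, 1.29, 1.24 and 1.28 (mean 1.28 ± 0.0221) and stood above chromosome 4 in every library. With all aligned reads it had a level of 1.16, and with total reads over total length as the base 1.12, so it did not pass 1.2 in either.

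With these, 5 of 20 autosomes had a mean level above 1.2, which is 25%, and 3 of 20 had one below 0.8, which is 15%. The members just inside and outside the upper bound were chromosome 10 and chromosomes 4 and 13, at 1.18 ± 0.0194 and 1.18 ± 0.0219. Chromosome 13 reached 1.204 in the histone input, where 6 autosomes were above the bound in place of 5. With X counted in the median, chromosomes 4 and 13 were both at 1.21. Next to the lower bound were chromosome 17 inside and chromosome 2 outside, and chromosome 2 fell to 0.765 when total reads over total length were the base. The bounds are conventions of this description and not steps in the number of copies.

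The lowest levels belonged to chromosomes 15, 20 and 17. Chromosome 15 had 0.687 in the SOX9 input, 0.688 in SOX6, 0.693 in H3K27ac and 0.687 in the histone input, with a mean of 0.689 ± 0.00302 (SD, n = 4). Chromosome 20 had 0.701, 0.696, 0.690 and 0.694, with a mean of 0.695 ± 0.00451, and its values overlap with those of chromosome 15. Chromosome 17 had 0.743, 0.750, 0.744 and 0.740, with a mean of 0.744 ± 0.00419, and each of these was above every value of chromosome 20. These 3 autosomes had the tightest agreement between libraries among the 10 at the ends of the order, with an SD of 0.438% to 0.649% of the mean. X, the chromosome outside this set, had a level of 0.581 ± 0.0117 on the same scale, below every autosome. Equal numbers of copies were taken above for autosomes only, so the value for X was not read as a loss.

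Chromosomes 2 and 8 led up from this group to the middle. Chromosome 2 had 0.874 in the SOX9 input, 0.839 in SOX6, 0.877 in H3K27ac and 0.881 in the histone input (mean 0.868 ± 0.0192, SD, n = 4). It was 0.123 above chromosome 17, the widest step in the lower part of the order. Chromosome 8 had 0.917, 0.901, 0.905 and 0.918 (mean 0.910 ± 0.00827) and could not be told apart from chromosome 5 at 0.916 ± 0.00430, which was above it in 2 of 4 libraries.

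The remaining autosomes formed a graded series rather than a single level. From the top, chromosomes 4 and 13 shared a level of 1.18, followed by chromosome 3 at 1.13 ± 0.0175, chromosome 6 at 1.09 ± 0.00429 and chromosome 18 at 1.02 ± 0.0184. Each of these 3 was apart from its neighbours in every library. Chromosomes 1, 12, 19 and 14 followed at 0.977, 0.972, 0.967 and 0.955, and each overlapped with the next. In all, 12 of the 19 neighbouring pairs had values that did not overlap between libraries and 7 had values that did. Between level and length Spearman's rho was 0.0932 over the 20 autosomes (a description).

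By weight, the 4 autosomes with the highest levels made up 16.3% of the autosomal length and held 26.9% ± 0.184 (SD, n = 4) of reads without a mismatch. The 3 lowest made up 9.64% of the length and held 6.03% ± 0.0628. The 12 autosomes between the bounds made up 70.0% of the length and held 62.5% ± 0.0424 of the reads.

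The length estimate bears on these values in proportion. With the distance from first to last peak, with the ends of the H3K4me1 list alone, or without the H3K9me3 list, no level moved by more than 0.977% and all 20 autosomes stayed on their side of both bounds. Unsequenced stretches inside a chromosome count as length in all of these. When only 100 kb bins that hold a peak were counted as length, the levels of chromosomes 16, 9 and 7 fell to 1.59, 1.55 and 1.47, so the value close to 2 depends on the length used. Chromosome 11 was at 1.52. The autosomes that changed sides of a bound were chromosome 12 (0.745), chromosome 15 (0.835), chromosome 10 (1.02), chromosome 4 (1.33) and chromosome 13 (1.207). The number of such bins depends on the peaks themselves, so this base also moves with peak density. Chromosomes 16, 9, 7 and 11 stayed above 1.2 and chromosomes 17 and 20 below 0.8 under every setting tried.

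The difference between the SOX6 input and the others was not spread evenly over autosomes. Chromosome 12 had a level of 1.01 in the SOX6 input and 0.974, 0.946 and 0.957 in the SOX9, H3K27ac and histone inputs, so that the SOX6 input was 5.29% above the mean of the other 3. Chromosomes 2 and 9 went the other way, at 4.33% and 4.29% below. Scaled by the median autosome, the SOX6 input lay below all 3 others on 11 autosomes and above them on 4. Scaled by total reads over total length, it lay below on 8 and above on 9. Under both scalings it was below on chromosomes 2, 3, 4, 7, 9, 13, 16 and 18 and above on 1, 12, 17 and 19, while chromosome 6 changed sides.

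**Figure D2:**
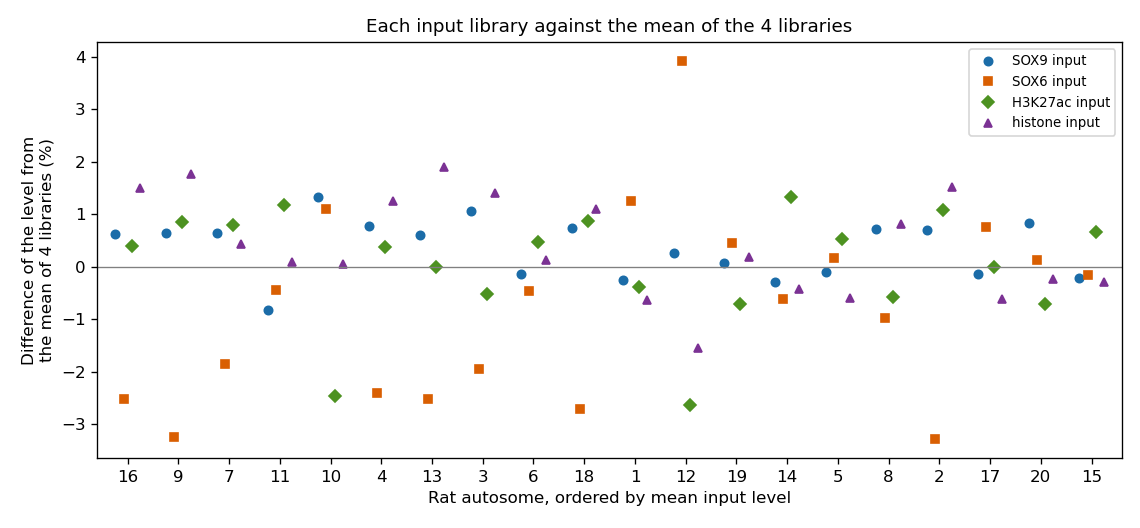
Difference of each input library's level from the mean of the 4 libraries, in percent, for each autosome in the order of the mean level. The SOX6 input (orange squares) lies lowest on chromosomes 16, 9, 7, 4, 13, 3, 6, 18, 14, 8 and 2. It lies highest on chromosomes 1, 12, 19 and 17, by the most on chromosome 12.

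Reads with mismatches were distributed over the autosomes in another way than exact reads. A mismatch is a base at which a read differs from the rat reference sequence, and these counts record neither its kind nor its source. Of autosomal aligned reads, 79.5% had no mismatch in the SOX9 input, 79.8% in SOX6, 79.2% in H3K27ac and 79.2% in the histone input. Reads with 1 mismatch made up 10.5%, 10.2%, 10.5% and 10.5%, and those with 2 or more made up 9.97%, 10.01%, 10.3% and 10.3%. The SOX6 input had the most exact reads and the fewest with 1 mismatch.

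Chromosome 11 departed from all others in this respect. Only 45.4% of its reads were exact in the SOX9 input, 46.1% in SOX6, 45.0% in H3K27ac and 44.7% in the histone input (mean 45.3% ± 0.623, SD, n = 4). Reads with 2 or more mismatches made up 33.1%, 32.7%, 33.5% and 33.7% of its reads, and those with 1 mismatch made up 21.5% ± 0.207. No other autosome had fewer than 67.3% exact reads on average. Per Mb and over the median autosome of each class, chromosome 11 stood at 1.59 ± 0.0138 for exact reads, 6.74 ± 0.134 for reads with 1 mismatch and 17.96 ± 0.241 for reads with 2 or more. The last of these was 11.3 ± 0.111 times the first.

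Chromosomes 1, 9 and 6 showed the same pattern to a lesser degree. On chromosome 1, reads with 2 or more mismatches made up 21.7% in the SOX9 input, 21.4% in SOX6, 22.4% in H3K27ac and 22.5% in the histone input, and its level was 4.91 ± 0.0427 in that class against 0.977 ± 0.00833 for exact reads. On chromosome 9 the shares were 13.2%, 13.9%, 13.4% and 13.6%, with a level of 5.46 ± 0.0948 in that class. Chromosome 9 was thus high in both kinds of read, and its level rose with mismatches, from 1.99 for exact reads to 2.59 with 1 mismatch. Whether the source of its reads with mismatches also adds exact reads was not tested. Chromosome 6, named after its values were seen as the next in order, had a mean share of 11.999% ± 0.299 and a level of 2.58 ± 0.0403.

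The lowest shares of reads with 2 or more mismatches were on chromosomes 13 (3.09% ± 0.0496), 10 (3.39% ± 0.0621) and 16 (3.39% ± 0.0375), which had the highest shares of exact reads, 89.3%, 88.5% and 88.4%. For reads with 1 mismatch, chromosome 11 was followed by chromosome 9 (11.004% ± 0.0293) and chromosome 12 (10.9% ± 0.173), and the lowest were chromosome 13 (7.63% ± 0.182), chromosome 18 (7.86% ± 0.221) and chromosome 10 (8.12% ± 0.192). The high level of chromosome 16 was seen in exact reads and, less so, in reads with 1 mismatch (1.67 ± 0.00565). For reads with 2 or more it was 1.18 ± 0.0144, below the bound of 1.2. Chromosome 7 had nearly the same level in every class, 1.87, 1.85 and 1.70.

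Together chromosomes 1, 6, 9 and 11 made up 24.1% of the autosomal length and held 27.1% ± 0.125 of the exact reads but 68.2% ± 0.204 of the reads with 2 or more mismatches (SD, n = 4). Reads with a mismatch beyond the ratio to exact reads of the median autosome were numerous on the same chromosomes. As a share of all autosomal aligned reads they came to 3.95% ± 0.0917 for chromosome 11, 2.31% ± 0.0569 for chromosome 1, 0.983% for chromosome 9 and 0.516% for chromosome 6. Where on these chromosomes the reads lie is not recorded in the counts per chromosome used here.

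**Figure D3:**
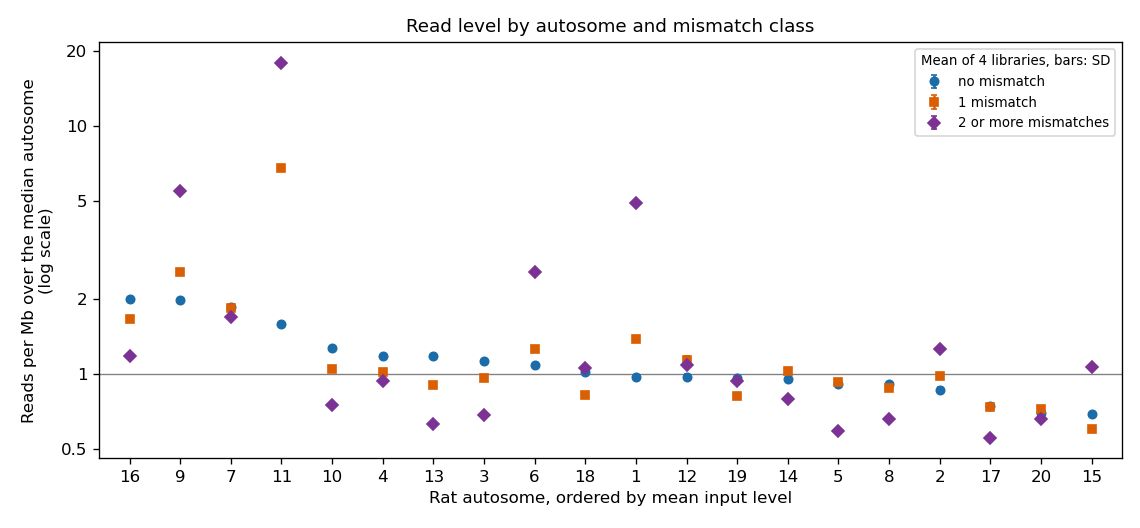
Reads per Mb over the median autosome (log scale) by number of mismatches, as the mean of 4 input libraries with the SD as a bar, which is mostly smaller than the symbol. Chromosome 11 reaches 17.96 for reads with 2 or more mismatches against 1.59 for exact reads, and chromosomes 9, 1 and 6 follow.

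Double-stranded DNA gives reads from either strand in equal number, so the strand balance is a check on mapping and on the reference sequence. The files split all aligned reads by strand and do not split the mismatch classes, so the values that follow are for all classes together. The share on the plus strand was 49.58% (exact Clopper-Pearson 95% interval 49.57% to 49.59%) in the SOX9 input, 49.56% (49.54% to 49.57%) in SOX6, 49.55% (49.53% to 49.58%) in H3K27ac and 49.56% (49.54% to 49.59%) in the histone input. It was below 50% in all 80 combinations of autosome and library, and the interval lay wholly below 50% in 77 of them. The interval did so in all 4 libraries on 18 of 20 autosomes, or 90.0%. The exceptions were chromosome 18 in the H3K27ac (49.98%) and histone (49.91%) inputs and chromosome 13 in the histone input (49.98%). These libraries were of lower depth, and the part of depth in the exceptions was not tested.

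The 3 lowest shares were on chromosomes 19, 9 and 1 in every library. By the mean, chromosome 19 had the lowest plus-strand share, with 49.18% in the SOX9 input, 49.16% in SOX6, 49.25% in H3K27ac and 49.17% in the histone input (mean 49.19% ± 0.0404, SD, n = 4). Chromosome 9 had a mean of 49.21% ± 0.0460 and chromosome 1 of 49.22% ± 0.0773. The values of these 3 overlap, and chromosome 19 was the lowest in 2 of 4 libraries. By the mean, the highest shares were 49.89% ± 0.0638 on chromosome 18, 49.87% ± 0.0837 on chromosome 13 and 49.86% ± 0.0319 on chromosome 5. The lowest and highest 3 did not overlap in any library.

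Across the 20 autosomes, a higher share of reads with 2 or more mismatches went with a lower share on the plus strand, with a Spearman's rho of -0.693 and a Pearson's r of -0.492. Without chromosomes 1, 6, 9 and 11 the values were -0.526 and -0.493 (a description over 16 autosomes, which share mapping and reference). Chromosomes 1, 6, 9 and 11 held 51.2% ± 2.13 of the surplus of minus-strand reads. Of all autosomal aligned reads, the reads split by strand, they held 10.7%, 5.59%, 8.14% and 8.37% in that order. Chromosome 19, among the 3 lowest in strand share, had only 5.43% ± 0.0699 of reads with 2 or more mismatches, so the relation did not hold for it. Between level and strand share Spearman's rho was 0.117.

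**Figure D4:**
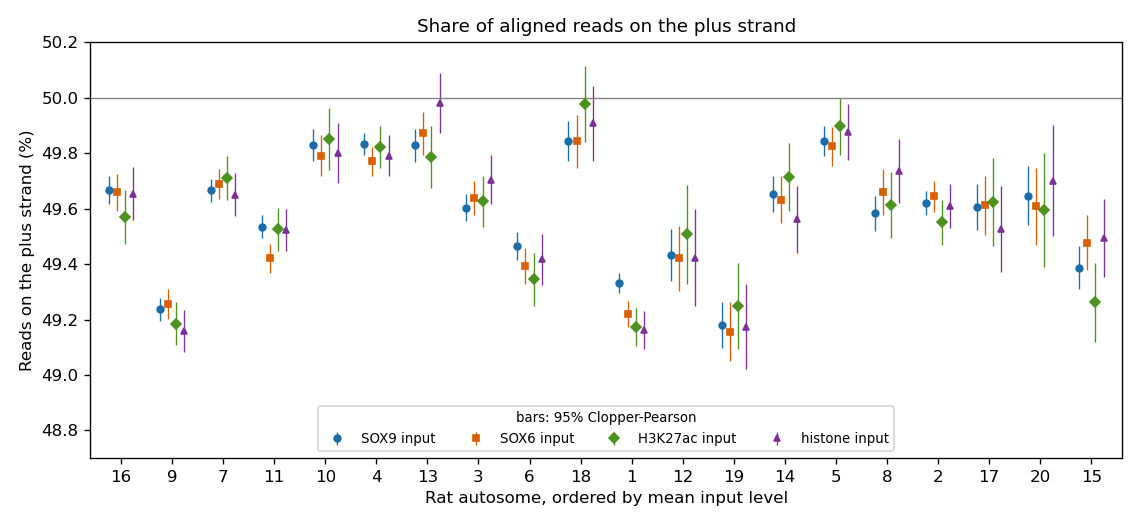
Share of aligned reads on the plus strand in percent for each autosome and input library, in the order of the mean level, with Clopper-Pearson 95% intervals as bars. Every value lies below 50%, with chromosomes 9, 1 and 19 lowest in every library.

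The peaks of the 6 immunoprecipitations were set beside these levels. Peak density was taken as peaks per Mb over the median autosome of each list, with 1 library per antibody and no replicate error. Autosomes with a high input level did not carry the same excess in every list. On chromosome 16, with an input level of 2.003, the density was 2.14 for H3K9me3, 1.48 for H3K27ac, 1.41 for H3K4me1, 1.29 for SOX9, 1.29 for SOX6 and 1.08 for H3K4me3. Chromosomes 9 and 7 had the same order at the ends, with H3K9me3 at 2.24 and 2.03 and H3K4me3 at 1.12 and 1.37.

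On chromosome 11 only 45.3% of aligned reads were exact. Whether the source of its reads with mismatches also adds exact reads was not tested. Chromosome 11 had few peaks for its level of 1.59, with densities of 0.873 for H3K9me3, 0.904 for H3K4me3, 1.01 for H3K27ac, 1.05 for H3K4me1, 1.13 for SOX9 and 1.203 for SOX6. Chromosome 10 went the other way, with a level of 1.28 and densities of 1.73 for SOX9, 1.79 for SOX6, 1.95 for H3K27ac, 1.93 for H3K4me1, 1.83 for H3K4me3 and 1.43 for H3K9me3. So did chromosome 12 at a level of 0.972, with densities from 1.36 for SOX9 to 4.66 for H3K9me3. Among the 3 lowest autosomes, chromosome 15 was low in all lists (0.503 for H3K9me3 to 0.701 for SOX6), while chromosome 20 had a density of 1.34 for H3K4me3 at a level of 0.695. More DNA yields more reads in an immunoprecipitation as well as in its input, and how the peak calls made up for this is not stated in the sources at hand. The part of the input level in these densities was not tested.

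**Figure D5:**
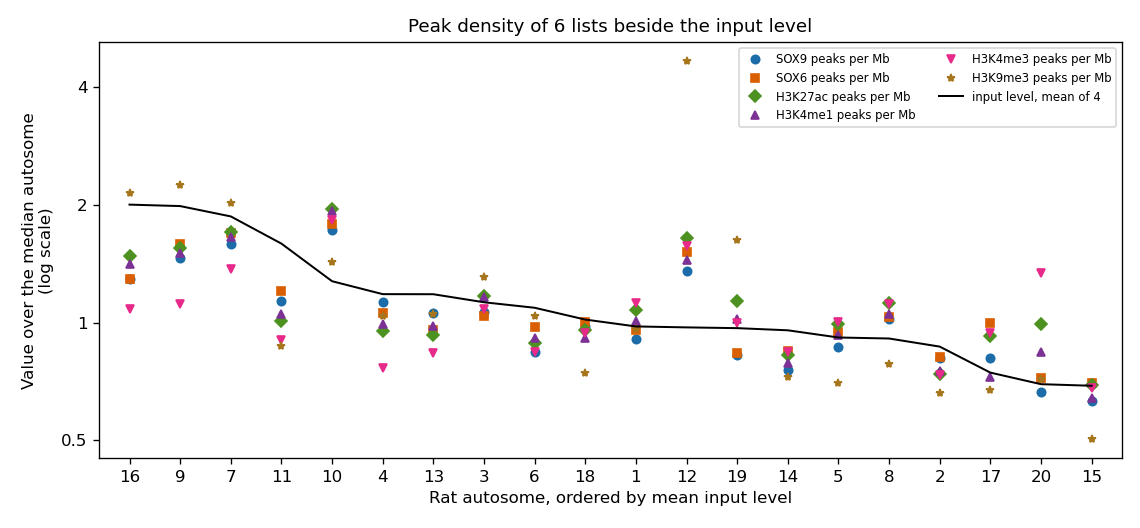
Peaks per Mb over the median autosome for the 6 peak lists (symbols, log scale), with the mean input level of 4 libraries as the black line, over autosomes in the order of that level. Only H3K9me3 lies above the input line on chromosomes 16, 9 and 7. All 6 lists lie below it for chromosome 11, among others, and above it for chromosomes 10 and 12.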

How the data were processed

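The deposited files give raw counts of aligned reads, split by strand and by 0, 1 or 2 and more mismatches, per the file headers, with a line for unmatched reads (46.5% to 46.6% of each library). The peak lists hold starts and ends, and MACS is named in their peak names, per the deposited files. CASAVA 1.8 and the rat build rn5 are named in the submitters' processing notes. The aligner, its handling of reads that match several places and any removal of duplicates are not stated in the sources at hand.

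Levels, shares and intervals were computed with Python 3.11.15, pandas 2.3.3 and scipy 1.17.1. Each library's reads per Mb without a mismatch were set over its median autosome, and means and SDs were taken over the 4 inputs. With 4 libraries an exact test could not reach p = 0.05, so neighbouring autosomes were called apart only where their values did not overlap. Pairs of libraries were compared by a chi-square test of homogeneity. It was tried on simulated pairs of equal depth with pure counting error, a setting that differs from these libraries. Values per library were given for the 5 highest and 5 lowest levels. For strand and mismatch shares the 3 autosomes at either end of the mean over libraries were named, some by mean and SD alone. The autosomes, bounds and measures were chosen with earlier results of these data known. Alternatives were other lengths, read classes and scalings, and each library left out. The bins of 100 kb and reads with 0 or 1 mismatch were added after seeing the data. Peak scores were not used.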

Additional observations from a re-analysis of the deposited data

Results flagged for a closer look

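In 16 of 85 groups of 4 libraries, 1 library lay far from the other 3. Chance gives about 1 in 20 for a single group, but the groups are not independent, so that rate is no measure of an excess here. The SOX6 input was the distant library in 12 of the 16 and the H3K27ac input in 4. Of these 12, 8 were the exact share on separate autosomes, and the SOX6 input also had the highest exact share over all autosomes (79.8%). In the SOX6 input the level was low on chromosome 7 (1.83, others 1.877 to 1.884) and chromosome 18 (0.990, others 1.025 to 1.029). Levels were flagged as scaled by the median autosome, and chromosome 18 is among the autosomes that set the median. With total reads over total length as the base, chromosome 7 was at 1.636 (others 1.644 to 1.657). Chromosome 18 was then at 0.883 (others 0.900 to 0.903). Whether the flags hold under that scaling was not tested. The share of reads without a mismatch in the SOX6 input was high on chromosomes 4 (87.4%), 5 (86.8%), 7 (85.7%), 8 (86.9%), 10 (88.8%), 16 (88.6%), 17 (86.5%) and 20 (85.1%). Its share of reads with 1 mismatch over all autosomes was low at 10.2%, against 10.5% in the others, and its plus-strand share on chromosome 11 was low at 49.42%, against 49.52% to 49.54%. In the H3K27ac input the level was high on chromosome 14 (0.968, others 0.949 to 0.952) and chromosome 15 (0.693, others 0.687 to 0.688). Its plus-strand share was high on chromosome 12 (49.51%) and low on chromosome 16 (49.57%). All of these gaps are small beside the differences between autosomes.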

How the results depend on the processing

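Leaving out 1 input library at a time left the number of autosomes above 1.2 at 5 and below 0.8 at 3, the SD of levels between 0.401 and 0.409, and the ratio of highest to lowest between 2.89 and 2.94. The plus-strand share stayed between 49.56% and 49.57%. The 3 other length estimates from peak ends and the scaling with X kept the SD and the ratio within the spread between libraries. With all aligned reads the SD was 0.553 and the ratio 4.29, with reads of 0 or 1 mismatch 0.442 and 3.10, and with 100 kb bins as length 0.280 and 2.27. Scaling by total reads gave an SD of 0.355 with the ratio unchanged. The number above 1.2 was 4 with all aligned reads or total scaling, 6 with bins and 7 with X in the median, and the number below 0.8 was 3, or 4 with total scaling. All 6 pairs of libraries still differed with all aligned reads and without chromosome 12. Adding X left the mismatch shares within the spread between libraries, and the planned strand share of exact reads was not run because strand is given for all aligned reads only. The inputs form 1 group, so no replicate block was fitted, and neighbouring autosomes were also compared within each library. Counts per chromosome do not resolve segments, and the labels do not say whether the spread between the 4 libraries includes differences between cultures.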
